A study of Mus musculus with 2 samples.

Results

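The 10 genes described here encode proteins that the liver secretes into plasma: the small-molecule carriers Ttr and Rbp4, the iron carrier Trf, the copper ferroxidase Cp, the haem binder Hpx, the adhesive glycoprotein Vtn, the protease inhibitor precursor Ambp, the fetuins Ahsg and Fetub, and the histidine-rich glycoprotein Hrg. They were taken by name, with earlier results of these data already known. All 10 were found among the 43346 mouse gene rows by their Ensembl identifiers. RNA came from the liver of B6NCrl mouse embryos at embryonic day 14.5, with no treatment or transgene named in the labels, in 1 group of 2 biological replicates. Each replicate was 1 library from 10 ng of total RNA longer than 200 nucleotides, with ERCC spike-in RNAs added. Replicate 1 was collected on 17 July 2014 and replicate 2 on 15 July 2014. The labels call each sample a single liver and also mixed-sex pooled tissue, so whether a library held 1 embryo is not settled. Both carry the same donor identifier, and the spread between them is the only error available. No second group existed, so no p-value was computed.

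Carriers of this kind move poorly soluble or reactive cargo through blood. Retinol leaves the hepatocyte on retinol-binding protein 4, which circulates bound to transthyretin, itself a carrier of thyroxine. Transferrin delivers ferric iron to cells through the transferrin receptor, and ceruloplasmin oxidises ferrous iron so that it can be loaded onto transferrin. Hemopexin takes up free haem and haptoglobin takes up free haemoglobin. Fetuin-A, fetuin-B, histidine-rich glycoprotein and the kininogens share cystatin-like domains and lie in 1 chromosomal cluster. At this age the liver is also the main site of red cell formation, so hepatic and blood-forming cells were sequenced together.

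Replicate 1 held 37059776 and replicate 2 held 26908926 estimated reads on mouse genes. Globin genes took 39.9% and 38.1% of mouse TPM, where TPM (transcripts scaled to a fixed library total) accounts for gene length. All 9 hepatoblast and hepatocyte markers and all 8 erythroid markers reached 1 TPM in both livers. Of the tissues outside the liver that make some of these proteins, 1 of 6 choroid plexus markers reached 1 TPM in both livers, namely Aqp1 at 10.8 and 12.4 TPM, and the defining marker Otx2 had no read. For gut and visceral endoderm 1 of 6 did, namely Fabp2, and for pancreatic islet 1 of 6, namely Chga.

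The starts of 4 members are shown because transcript choice at Rbp4 and level at the fetuin cluster are described below. Each sequence runs 5′ to 3′ from 250 bases before to 50 bases after a start site in RefSeq (GRCm38.p6). Capitals mark any match to 4 motifs searched on both strands: the TATA box core TATAAA, the HNF1 half-site GTTAAT, the FOXA core TGTTTGC and the nuclear receptor half-site AGGTCA.
Rbp4 near start, 17 nucleotides from the start of transcript ENSMUST00000112335.2, chr19:38124762-38125061 (minus strand): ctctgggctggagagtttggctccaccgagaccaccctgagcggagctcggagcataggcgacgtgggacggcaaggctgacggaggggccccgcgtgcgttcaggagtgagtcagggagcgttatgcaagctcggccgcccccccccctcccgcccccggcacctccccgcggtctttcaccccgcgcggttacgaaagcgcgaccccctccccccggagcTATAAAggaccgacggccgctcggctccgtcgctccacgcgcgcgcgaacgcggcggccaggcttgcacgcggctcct
Rbp4 far start, 73 nucleotides from the start of transcript ENSMUST00000025951.8, chr19:38125272-38125571 (minus strand): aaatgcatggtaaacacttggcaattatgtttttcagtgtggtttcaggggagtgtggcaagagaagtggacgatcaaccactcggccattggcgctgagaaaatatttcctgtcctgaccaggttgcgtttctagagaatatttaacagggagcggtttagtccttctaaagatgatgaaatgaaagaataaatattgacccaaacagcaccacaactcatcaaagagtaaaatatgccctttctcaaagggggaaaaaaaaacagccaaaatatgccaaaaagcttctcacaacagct
Ahsg, chr16:22891765-22892064 (plus strand): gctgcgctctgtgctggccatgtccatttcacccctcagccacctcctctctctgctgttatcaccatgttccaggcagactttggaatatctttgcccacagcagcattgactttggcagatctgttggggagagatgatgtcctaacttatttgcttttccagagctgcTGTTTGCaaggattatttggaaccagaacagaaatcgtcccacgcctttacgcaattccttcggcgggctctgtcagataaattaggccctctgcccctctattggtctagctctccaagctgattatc
Fetub outer start, that of transcript Fetub-204, chr16:22918132-22918431 (plus strand): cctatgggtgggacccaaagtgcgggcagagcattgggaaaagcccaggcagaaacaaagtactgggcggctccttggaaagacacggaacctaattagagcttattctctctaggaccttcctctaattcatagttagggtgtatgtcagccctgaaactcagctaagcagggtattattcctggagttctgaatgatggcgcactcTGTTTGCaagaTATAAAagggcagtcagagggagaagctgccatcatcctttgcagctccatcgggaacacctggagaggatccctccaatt
Fetub inner start, 15 nucleotides from the start of transcript Fetub-201, chr16:22919972-22920271 (plus strand): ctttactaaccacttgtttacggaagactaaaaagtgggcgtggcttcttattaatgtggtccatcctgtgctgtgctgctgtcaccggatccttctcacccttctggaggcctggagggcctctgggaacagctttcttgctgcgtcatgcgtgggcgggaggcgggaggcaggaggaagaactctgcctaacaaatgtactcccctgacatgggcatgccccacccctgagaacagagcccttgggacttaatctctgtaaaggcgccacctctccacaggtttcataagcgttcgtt
Hrg, chr16:22950822-22951121 (plus strand): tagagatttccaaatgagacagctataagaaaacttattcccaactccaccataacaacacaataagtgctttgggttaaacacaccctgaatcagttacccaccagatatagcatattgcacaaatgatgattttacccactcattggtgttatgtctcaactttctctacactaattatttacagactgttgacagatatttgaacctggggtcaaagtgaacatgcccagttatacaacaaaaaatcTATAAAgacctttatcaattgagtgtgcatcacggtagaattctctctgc

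The near Rbp4 window was 72% G and C and held TATAAA beginning at position -28. Position 0 is the RefSeq start, and negative positions lie before it. The annotated start of ENSMUST00000112335.2 lies 17 nucleotides upstream of that RefSeq start, and so closer to the TATAAA. The far window was 40.7% G and C and held none of the 4 motifs. The median G and C content of all 32851 windows was 52.7%. The annotated start of ENSMUST00000025951.8 lies 73 nucleotides downstream of the far RefSeq start, whereas the window ends 50 bases after it. The far window therefore does not cover the start of that transcript, and motifs there were not searched in full. The Ahsg window held the FOXA core at position -79. The outer Fetub window held TATAAA at position -31 and the FOXA core at position -42, and the inner one held none of the 4. In the Hrg window TATAAA began at position 0. RefSeq windows were found for 8 members, 11 windows in all, and not for Trf and Ttr. TATAAA was present in 5 of the 11 member windows and in 13.6% of all windows. GTTAAT was present in 2 and in 7.10%, TGTTTGC in 3 and in 5.07%, and AGGTCA in 2 and in 16.3%. In the windows not shown, TATAAA on the gene's strand began at position -135 for Vtn. It began at -25 for the Cp start nearest Cp-209, a retained-intron model. Matches of different motifs did not overlap in the windows shown. These are matches of letters, not binding sites.

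Together the 10 genes accounted for 0.911% of mouse TPM in replicate 1, against 0.931% in replicate 2, a mean of 0.921% ± 0.014 (SD, n = 2). By estimated reads, without scaling for length, they took 1.36% and 1.32%. Trf alone made up 52.0% and 50.1% of the members' TPM, and the 7 highest members 99.8% in each liver. The median member stood at 428 and 496 TPM, against 9.20 and 10.1 TPM for genes that reached 1 TPM in both. At that level 9 of the 10 members were detected in both livers, beside 26.2% of all mouse gene rows, and the exception was Hrg. In tissue RNA of this kind, fewer cells of a type and less RNA per cell cannot be told apart.

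The members spanned a wide range. Trf was 7202-fold above Hrg in replicate 1 and 5008-fold in replicate 2. From high to low the order by gene TPM was Trf, Rbp4, Ahsg, Ttr, Ambp, Vtn, Hpx, Cp, Fetub and Hrg. Of the 9 neighbouring pairs in that order only Ttr and Ambp overlapped between livers, and their order was opposite in the 2. The widest step, 17.7-fold in mean TPM, lay between Hpx and Cp, and the next widest, 7.39-fold, between Cp and Fetub. The other steps between neighbours lay between 1.04-fold and 3.14-fold.

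**Figure D1:**
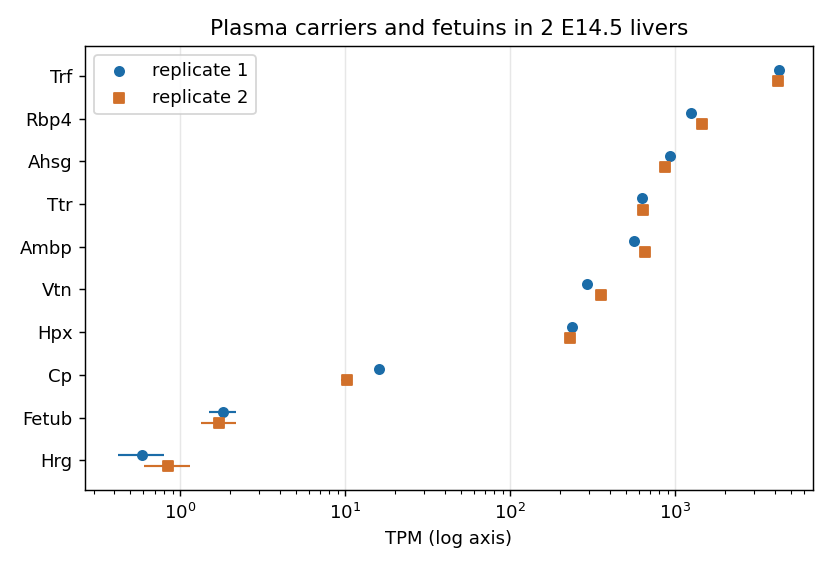
TPM (log axis) of each member in both livers, with exact 95% Poisson intervals of its reads drawn as lines where wider than the point. Trf sits at 4207 and above, 6 members lie between 229 and 1447 TPM, and Cp, Fetub and Hrg lie at or below 16.0 TPM.

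Rbp4 (ENSMUSG00000024990.8, chromosome 19, 38116629 to 38125281, minus strand) stood at 1247 TPM in replicate 1, against 1447 TPM in replicate 2, ranks 45 and 40 of all genes. Its mean was 1347 ± 142 TPM (SD, n = 2), and it was the lower in replicate 1. Nearly all of it came from the near start. The near-start transcript held 99.3% ± 0.04 of the gene's TPM. The far-start transcript, whose annotated start lies 420 nucleotides upstream, held 0.695%, from 400 and 345 estimated reads. The near start is the one with the TATAAA and the high G and C content in the sequences above. The far window shown there does not reach the annotated start of the far-start transcript.

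Rbp4 exceeded its plasma partner Ttr 1.98-fold in replicate 1 and 2.27-fold in replicate 2. Of 17 retinol handling genes, the retinaldehyde reductase gene Dhrs3 was at 17.1 and 19.3 TPM, and Rbp7 was the lowest, with no read in either liver. In that list 6 of 17 genes reached 1 TPM in both livers. Stra6l, which encodes a liver receptor for the retinol-binding protein complex, was at 3.62 and 3.80 TPM, whereas Stra6, the receptor gene of eye and other tissues, had 0 reads in replicate 1 and 1 read in replicate 2. Lrat, which esterifies retinol for storage, was at 1.02 and 0.56 TPM.

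Ttr (ENSMUSG00000061808.3, chromosome 18, 20665280 to 20674321, plus strand) was at 629 TPM in replicate 1, against 638 TPM in replicate 2. By TPM it was the most even member after Trf, but that order depended on the scaling. Its rank was 122 in both. Of the other thyroid hormone carriers and handlers, 5 of 9 reached 1 TPM in both livers. The transporter gene Slc16a10 was the highest, at 34.8 and 39.4 TPM, and the receptor gene Thra came next by its mean, at 6.77 and 8.22 TPM. Serpina7, which encodes thyroxine-binding globulin, was at 6.89 and 7.34 TPM and thus above Thra in replicate 1, so that Ttr exceeded it 91.3-fold and 86.9-fold. No read of Dio1, the deiodinase of the adult liver, or of Slco1c1, a thyroxine transporter gene, was counted; a count of 0 allows up to 3 reads per library.

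Trf (ENSMUSG00000032554.11, chromosome 9, 103204001 to 103230444, minus strand) was the highest member, at 4249 TPM in replicate 1, against 4207 TPM in replicate 2, a mean of 4228 ± 30 TPM (SD, n = 2). It ranked 15 and 18 among all genes. This gene value includes 1142 and 1132 TPM of Trf-209, a short retained-intron model, and the shares and folds given for Trf use it. The transferrin receptor gene Tfrc was at 315 and 355 TPM, which put Trf 13.5-fold and 11.9-fold above it. Steap3, the endosomal ferrireductase gene, was next in the uptake list, at 30.9 and 36.7 TPM. Tfr2, an iron-sensing receptor gene, was at 25.3 and 26.8 TPM. The melanotransferrin gene Meltf was lowest, at 0.05 and 0.02 TPM, and 6 of the 7 genes reached 1 TPM in both livers. Ltf, which encodes the lactoferrin of neutrophil granules, was at 20.1 and 16.2 TPM, lower than Trf by 211-fold and 260-fold.

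Cp (ENSMUSG00000003617.12, chromosome 3, 19957054 to 20009145, plus strand) was far below its iron partner, at 16.0 TPM in replicate 1, against 10.2 TPM in replicate 2; the reads behind these were 1822 and 747. Its mean was 13.1 ± 4.1 TPM (SD, n = 2), and Trf exceeded it 266-fold and 413-fold. Genes that supply its copper were detected: the copper exporter gene Atp7b at 8.49 and 9.81 TPM, and the copper chaperone gene Atox1 at 170.8 and 162.5 TPM. In the copper and ferroxidase list 8 of 10 genes reached 1 TPM in both livers. The metallothionein genes were highest, Mt1 at 4405 and 4993 TPM and Mt2 at 1154 and 1180 TPM. Hephl1 was lowest, at 0.04 and 0.03 TPM, and Heph, the ferroxidase gene best known from gut, was at 0.98 and 0.54 TPM. Slc40a1, which encodes the iron exporter ferroportin, stood at 98.8 and 101.7 TPM, 6-fold or more above Cp in each liver.

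The full-length Cp transcripts use 1 of 2 last coding exons, whose ends lie 13033 nucleotides apart, and the coding ends are shown because the reads divided unevenly between them. In rat, an alternative last exon of this gene gives a membrane-anchored form beside the secreted one. Bases in lower case are the last 30 shared by both transcripts, and capitals are the coding end of each alone, stop codon included (GENCODE M21, GRCm38, plus strand).
Cp-202, 1061 codons, own coding end on chromosome 3 beginning at 19992509: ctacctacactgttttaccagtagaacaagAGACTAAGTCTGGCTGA
Cp-201, 1085 codons, own coding end on chromosome 3 beginning at 20005467: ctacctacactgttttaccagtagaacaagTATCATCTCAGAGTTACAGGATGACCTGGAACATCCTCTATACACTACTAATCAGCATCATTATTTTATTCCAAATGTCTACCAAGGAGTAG

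The 3 transcripts with the near end, Cp-202, Cp-203 and Cp-213, held 1703 estimated reads in replicate 1 and 686 in replicate 2. The 4 with the far end, Cp-201, Cp-204, Cp-205 and Cp-214, held 18.9 and 16.9 reads. The far end thus took 1.10% and 2.40% of the reads of both classes. Within the near class Cp-202 led with 45.6% ± 4.1 of the gene's TPM, and Cp-203, with 15.5%, has the same last coding exon. Cp-213, a 674-nucleotide model, took 28.6% of TPM but 6.31% of reads. The division of reads among 16 overlapping models is an estimate, and the effective length of the gene came out at 2727 nucleotides in replicate 1 and 2522 in replicate 2.

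Hpx (ENSMUSG00000030895.8, chromosome 7, 105591613 to 105600137, minus strand) stood at 235 TPM in replicate 1, against 229 TPM in replicate 2. Hp, which encodes the haemoglobin binder haptoglobin, was at 41.0 and 22.9 TPM, so that Hpx exceeded it 5.74-fold and 10.0-fold. Lrp1, the hemopexin receptor gene, was at 10.8 and 13.2 TPM. Cd163, the haptoglobin receptor gene of macrophages, was the lowest of its list at 0.02 TPM in both livers, from 4 and 3 reads, while 7 of 8 macrophage markers reached 1 TPM. The biliverdin reductase genes were the highest of the haem list, Blvrb at 893 and 937 TPM and Blvra at 51.8 and 53.3 TPM, and 6 of its 7 genes reached 1 TPM in both livers.

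Ambp (ENSMUSG00000028356.4, chromosome 4, 63143275 to 63154799, minus strand) was at 564 TPM in replicate 1, against 654 TPM in replicate 2. Its product is cut into alpha-1-microglobulin, a lipocalin, and bikunin, which is joined to heavy chains from the Itih genes. Itih3 was at 225 and 206 TPM, Itih2 at 213 and 243 TPM and Itih1 at 22.2 and 24.0 TPM. Ambp was 1.23-fold and 1.38-fold the sum of these 3. The hyaluronan matrix gene Tnfaip6, whose product transfers heavy chains, was the lowest of the list at 0.01 and 0.02 TPM, and 6 of 7 genes reached 1 TPM in both livers.

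Vtn (ENSMUSG00000017344.4, chromosome 11, 78499091 to 78502324, plus strand) was at 293 TPM in replicate 1, against 355 TPM in replicate 2. By gene TPM it was above Hpx in both livers. The coding model Vtn-201 alone was at 213 and 256 TPM, below Hpx in replicate 1 and above it in replicate 2. Genes for the partners of Vtn were much lower. The integrin genes Itgav and Itgb5 were the highest of 6, at 9.14 and 10.7 TPM and at 8.69 and 11.2 TPM, and 4 of 6 reached 1 TPM in both.

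**Figure D2:**
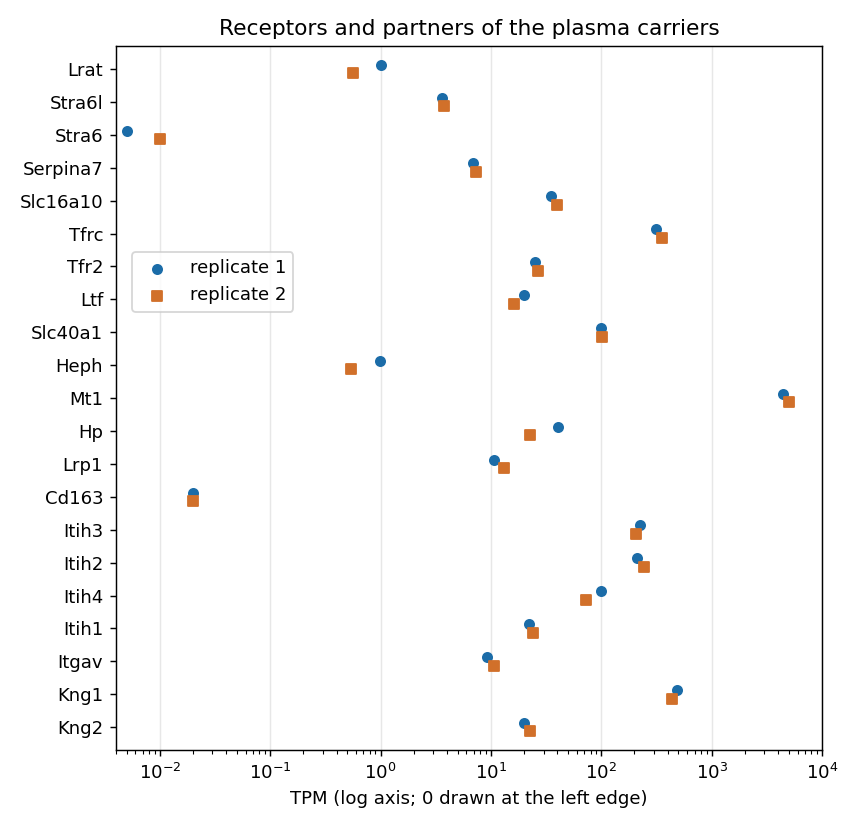
TPM (log axis) in both livers of receptor, partner and related genes, in the order of the carriers they belong to. Mt1 lies at 4405 TPM and above and Tfrc and Kng1 at 315 TPM and above, whereas Stra6 and Cd163 lie at or below 0.02 TPM; a value of 0 is drawn at the left edge.

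The fetuin cluster on chromosome 16 held members of very unequal level. Ahsg (ENSMUSG00000022868.5, 22891277 to 22899449) was at 932 TPM in replicate 1, against 859 TPM in replicate 2, a mean of 895 ± 52 TPM (SD, n = 2). Fetub (ENSMUSG00000022871.8, 22918334 to 22939778) was at 1.82 and 1.72 TPM, from 111 and 69 reads. Hrg (ENSMUSG00000022877.8, 22951072 to 22961656) was at 0.59 and 0.84 TPM, from 40 reads in each library, with exact Poisson 95% intervals of 0.42 to 0.80 and 0.60 to 1.14 TPM. These 3 genes lie on the plus strand within 70.4 kb. Ahsg exceeded Fetub 512-fold and 499-fold, and exceeded Hrg 1580-fold and 1022-fold. All intervals given cover counting error only.

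The kininogen genes follow on the same chromosome, and encode precursors of bradykinin. Kng2 was at 19.8 and 22.6 TPM and Kng1, at the far end of the 191 kb cluster, at 489 and 433 TPM. Ahsg was 1.90-fold and 1.98-fold Kng1. The order along the chromosome was therefore high, low, low, intermediate and high, with the low genes between. Kng1 and Kng2 are near-identical copies in part, and the deposited SD of their estimated reads in replicate 1 was 0.03% and 0.91%. The 2 protein-coding genes on either side were between 12.9 and 148.5 TPM: Tbccd1 and the chaperone gene Dnajb11 before Ahsg, and the translation factor gene Eif4a2 and the replication factor gene Rfc4 after Kng1.

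**Figure D3:**
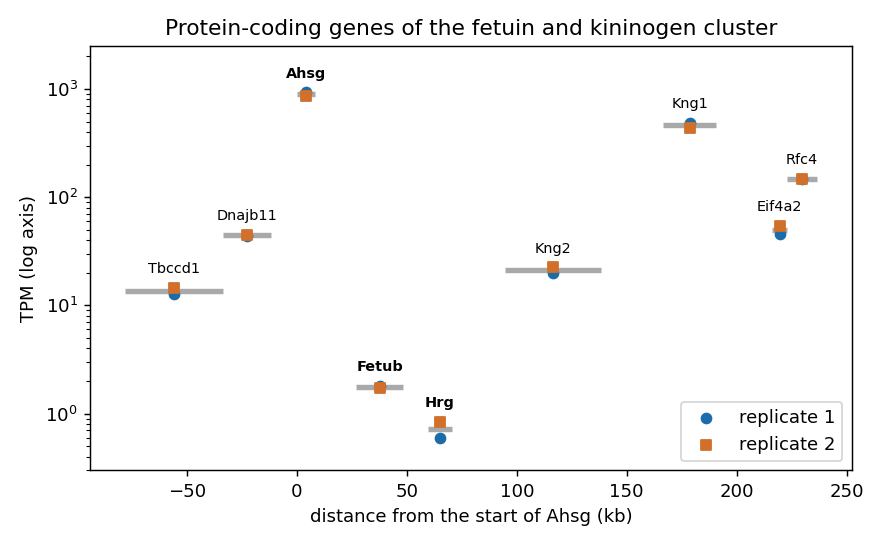
TPM (log axis) of protein-coding genes against distance from the start of Ahsg in kb, for both livers, with grey bars spanning each gene at its mean and members in bold. Ahsg at 932 and 859 TPM and Kng1 at 489 and 433 TPM stand at the ends of the cluster, with Fetub and Hrg under 2 TPM between them.

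Cst3, which encodes cystatin C, was second to Kng1 in the cystatin list, at 134.8 and 128.8 TPM, and Cst6 was lowest, with 0 and 3 reads. In that list 4 of 6 genes reached 1 TPM in both livers. Among proteases and mineral genes related to the fetuins, 4 of 8 did. Spp1, the osteopontin gene, was at 5.29 and 4.62 TPM, and Abcc6, a liver transporter gene whose loss causes ectopic mineralisation, was at 3.21 and 6.19 TPM. No read of Astl, which encodes the egg protease ovastacin that fetuin-B inhibits, or of Mep1b was counted.

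Of the members with several transcripts, Fetub was the one whose estimated leading transcript differed between livers, although its leaders were nearly level in replicate 2. Ahsg, Hpx, Hrg and Ttr have 1 transcript each in the deposited tables, and Ambp-201 held 99.99% ± 0.02 of Ambp TPM. Trf-201 held 66.7% ± 0.1 of Trf TPM and 92.5% of its reads. Trf-209, a retained-intron model of 433 nucleotides, held 26.9% of TPM but 5.04% of reads. Vtn-201 held 72.4% ± 0.5 of TPM and 88.1% of reads, and Vtn-204, a retained-intron model of 678 nucleotides, held 27.1% and 11.6%. For both genes the short model weighs more by TPM, which divides reads by length.

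Fetub-201 held 87.1% of Fetub TPM in replicate 1 and 41.9% in replicate 2, while Fetub-203 held 12.9% and 48.0%. Behind these shares were 98.0 and 30.9 estimated reads for Fetub-201 and 12.99 and 31.8 for Fetub-203. Fetub-202 held 0% and 10.1%, from 0 and 6.27 reads. No read was assigned to Fetub-204, the model at the outer start whose window carries TATAAA and the FOXA core. The leading Fetub model thus differed only by estimate, on about 100 reads or fewer per library and model. In replicate 2 the 31.8 reads of Fetub-203 and the 30.9 of Fetub-201 were too close to order the models.

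**Figure D4:**
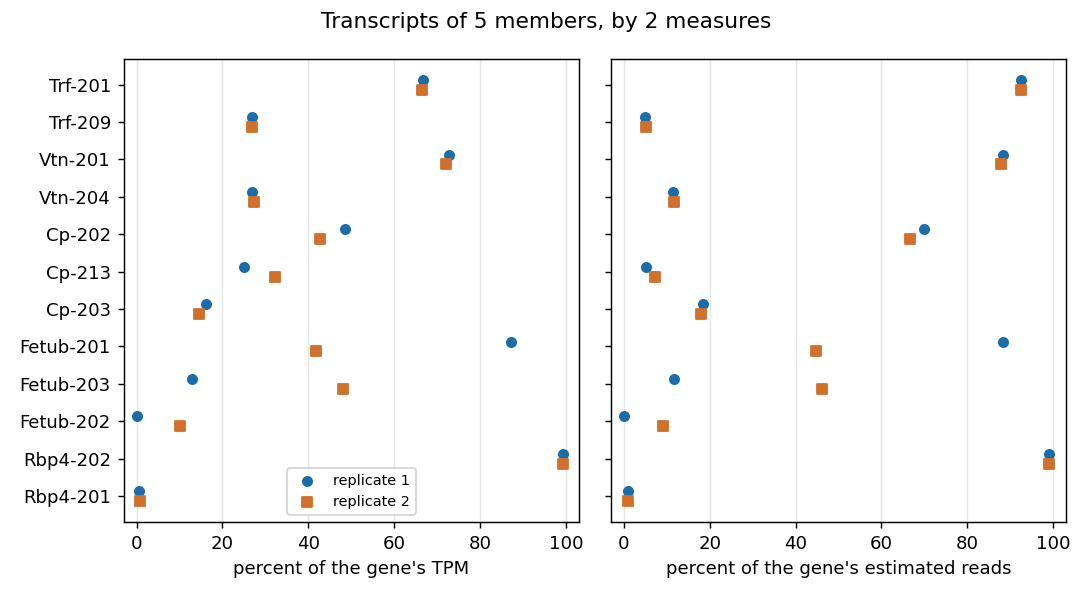
Percent of a gene's TPM (left) and of its estimated reads (right) for the named transcripts of Trf, Vtn, Cp, Fetub and Rbp4, in both livers. Trf-201 lies near 66.7% by TPM and 92.5% by reads, and the Fetub models are the ones whose points lie farthest apart between livers.

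Between the livers no member differed 2-fold. Ratios are log2 of TPM plus 1, replicate 1 over replicate 2, for genes averaging 10 TPM or higher and holding 50 reads in sum, which 8 members and 5564 genes passed; Fetub and Hrg did not. The count of 0 of 8 stands beside 0.126% of all tested genes 2-fold or more higher in replicate 1 and 0.0539% lower, so few genes of any kind differed that much. Among the members 4 were above 0 and 4 below, although the sign for Trf, Ttr and Hpx depended on the scaling. Their median was −0.0027, against −0.09 for all tested genes, of which 23.6% were above 0. The median size of the ratio, sign ignored, was 0.17 in the members and 0.11 in all tested genes.

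Rbp4, Ambp and Vtn were the lower ones in replicate 1, at −0.22, −0.21 and −0.28. The ratio of TPM was 0.861 for Rbp4 (95% counting interval 0.849 to 0.874), 0.862 for Ambp (0.847 to 0.877) and 0.825 for Vtn (0.807 to 0.844). Ahsg was higher in replicate 1, at 0.12, with a TPM ratio of 1.09 (1.07 to 1.10). Trf, Ttr and Hpx lay within 0.04 of 0. These values all lie inside the central 95% of tested genes, −0.38 to 0.22. For Fetub the TPM ratio of 1.06 had an interval of 0.78 to 1.45, and for Hrg the ratio of 0.70 had one of 0.44 to 1.12, so neither difference was detectable at this depth.

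Cp was the member that stood apart, at 0.60, a TPM ratio of 1.57 (1.44 to 1.71). At 1.5-fold, a threshold added after the values were seen, it was the 1 member of 8 called, higher in replicate 1, beside 0.377% of tested genes higher and 0.377% lower. With Cp itself counted, 21 tested genes had a ratio at least as large. With a pseudocount of 5 the ratio of Cp was 0.47, under 1.5-fold, and by CPM, reads scaled to the library total with TMM factors, it was 0.86. Some other genes of secreted proteins were also higher in replicate 1. Hp had a ratio of 0.82, the siderophore binder gene Lcn2, at 53.1 and 33.7 TPM, one of 0.64, the iron hormone gene Hamp, at 25.1 and 10.1 TPM, one of 1.23, and Itih4, at 99.7 and 72.2 TPM, one of 0.46. Of 12 acute-phase genes, a list added after the values were seen, 8 passed the filter. Of these, 6 were higher in replicate 1, beside 23.6% of all tested genes, and 3 were so by 1.5-fold or more. The 6 include Hp, Lcn2, Hamp and Itih4, and the 3 are Hp, Lcn2 and Hamp. These counts thus repeat genes already named and are not separate support. Crp and Lbp were the lower ones, at −0.04 and −0.10. Of 11 other plasma carrier genes, Alb and Afp among them, the 9 that passed the filter were all below 0. All 8 neutrophil granule markers, also an added list, were above 0, with sums of 2770 TPM in replicate 1, against 1985 TPM in replicate 2, while the 8 macrophage markers summed to 216 and 218 TPM. The part of these in the Cp difference was not tested.

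**Figure D5:**
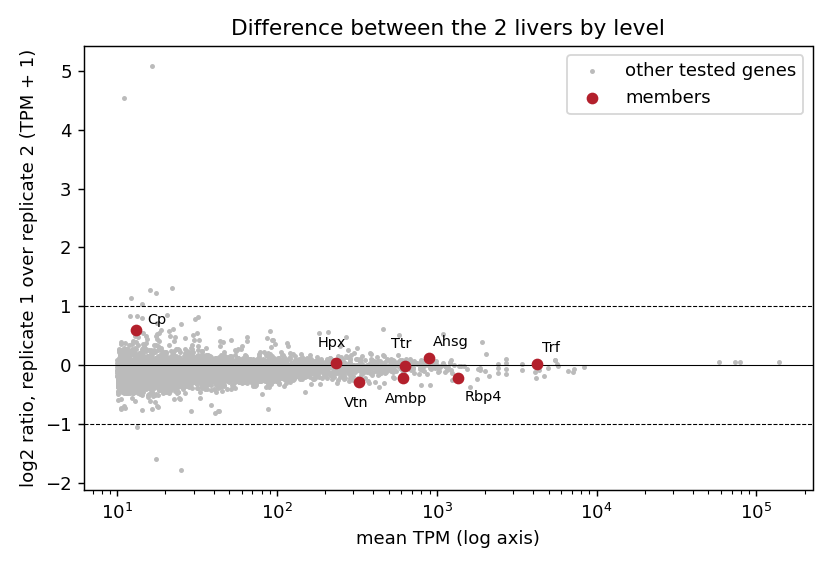
Log2 ratio of TPM plus 1, replicate 1 over replicate 2, against mean TPM (log axis) for all 5564 tested genes (grey) and the 8 members that passed the filter (red); dashed lines mark 2-fold. Cp lies at 0.60, and the other 7 members lie between −0.28 and 0.12.

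Exons of 3 members overlap those of other genes, and reads can be shared there. Trf overlaps Gm20425 on the same strand, at 1.89 and 3.05 TPM. Cp overlaps Hps3 on the opposite strand, at 4.37 and 4.10 TPM, against 16.0 and 10.2 TPM for Cp itself. Ahsg overlaps an antisense gene, Gm30505, which was not used here. Whether reads were separated by strand at Cp and Ahsg is not stated.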

How the data were processed

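Total RNA of E14.5 mouse liver was measured in 2 biological replicates, 1 library each, called livers here although the labels also name pooled tissue. The authors deposited gene and transcript tables on mm10 with GENCODE M4, per the deposited description; their aligner and counter, not given in the sources used here, are unknown. Per row, expected counts (estimated reads), TPM over all rows with spike-ins included, FPKM and the percent of a gene's TPM per transcript were deposited by the authors, per the file headers. Symbols and positions came by unversioned identifier from GENCODE M21 (GRCm38), for 42462 of 43346 mouse rows. Spike-ins held 7.35% (replicate 1) and 6.72% (replicate 2) of 39998440 and 28848851 expected counts, and 26248 rows with numeric identifiers, with 10.1 and 10.0 reads, were left out.

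Detection was 1 TPM. Ratios used a pseudocount of 1, which understates differences of low genes. Intervals are exact 95% Poisson or binomial, for counting error only, since amplified reads are not independent molecules. Chi-square per degree of freedom between the libraries was 10.8 over 15840, so neither is a copy of the other. The value cannot tell separate animals from separate preparations of the same RNA. The ratio procedure was tested on simulated data, with a spread between libraries that was assumed and not estimated from these. At 2-fold it called 90 of 90 tested genes changed 4-fold, 82 of 90 changed 2.5-fold and 1 of 5594 unchanged. Alternatives were pseudocounts of 0.1 and 5, no filter, FPKM, posterior mean TPM, CPM with TMM factors from edgeR 4.0.16 (R 4.3.3; no test, counts rounded for factors only), spike-in scaling and TPM without globins. Python 3.11.15 was used with scipy 1.17.1, pandas 2.3.3, matplotlib 3.10.9 and numpy 2.4.6.

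The members and the gene lists were chosen with earlier results of these data known. By rule, all members, the 2 highest and the lowest gene of each list, the cluster genes and transcripts of 10% or more were named. Other genes were named after their values were seen, as were 2 lists (acute-phase genes, neutrophil markers). Some genes that the rule names are not reported here.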

Additional observations from a re-analysis of the deposited data

How the results depend on the processing

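The members' summed share of mouse TPM, 0.921%, was 1.34% by expected counts, 0.905% by posterior mean TPM and 1.51% without globin genes, and 0.911% to 0.931% with 1 liver left out. The median log2 ratio of the members, -0.0027, was 0.12 by CPM with TMM factors. It was 0.05 by FPKM and 0.05 without globins, and -0.08 by spike-in counts. The median of all tested genes was -0.09 by TPM, 0.02 with TMM factors and -0.17 by spike-in counts, and relative to it Trf, Ttr, Hpx and Ahsg were above 0 and Rbp4, Ambp and Vtn below 0 under each of these scalings, although the raw sign of Ttr, Trf and Hpx differed among them. No member differed 2-fold with a pseudocount of 0.1 or 5, without the filter, by FPKM, with TMM factors, by spike-in counts or without globins. The 1 member at 1.5-fold, Cp, was 0 members with a pseudocount of 5. Of the leading transcripts, by reads Cp-202 held 68.2%, the near-start Rbp4 transcript 99.0%, Trf-201 92.5% and Vtn-201 88.1%; the shares by TPM divide by length. With 1 liver left out, Fetub-201 held 41.9% to 87.1% and Cp-202 42.7% to 48.5%. At 1 TPM or more, 9 members were found in each liver alone and by FPKM, and 8 at 10 TPM. Without the filter 146 genes differed 2-fold, against 10 with it, and 6 did with TMM factors. Depth limits Fetub, Hrg and the far Cp end. No paired analysis was possible because the series holds 1 group.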

Other observations

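The 11 other plasma carrier genes had a median of 1129 TPM in replicate 1, against 1342 TPM in replicate 2. The fetal albumin gene Afp was at 6417 TPM in replicate 1, against 6856 TPM in replicate 2, 1.51-fold and 1.63-fold Trf, and the apolipoprotein gene Apoa2 was at 4223 and 4448 TPM. Alb was at 2583 and 2847 TPM, or 0.61-fold and 0.68-fold the gene value of Trf. The coding model Trf-201 alone was at 2836 and 2802 TPM, above Alb in replicate 1 and below it in replicate 2. Serpina6, the cortisol-binding globulin gene, was at 1129 and 1342 TPM, and Gc, the vitamin D carrier gene, at 177 and 182 TPM. A1bg had no read, and 10 of the 11 genes reached 1 TPM in both livers. All 9 that passed the filter had a log2 ratio below 0, as did most tested genes, of which 23.6% were above 0. The median of these carriers was -0.095, against -0.093 for all tested genes, so as a set they did not stand apart.

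Lipocalins other than Rbp4 and the Ambp product were looked at only in a list of 8 genes. Apom, the sphingolipid carrier gene, was at 612 and 626 TPM and C8g, a complement gene, at 47.7 and 43.9 TPM, while the acid glycoprotein genes Orm2 and Orm3 had no read. In that list 3 of 8 genes reached 1 TPM in both livers, Lcn2 at 53.1 and 33.7 TPM among them. Of 10 liver transcription factor genes 7 did, Foxa3 at 21.9 and 21.3 TPM and Cebpb at 10.4 and 10.9 TPM being the highest, and Foxa1, at 0.52 and 0.92 TPM, the lowest. All 7 endothelial markers, 6 of 8 stellate and mesenchymal markers and 3 of 6 bile duct markers reached 1 TPM in both livers.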
